A study of Eucalyptus nitens with 12 samples.

Results

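The 144 genes described here were those whose expression in Eucalyptus nitens cambium varied little between bulks of trees with low and high Kraft pulp yield (KPY, the share of the mass of wood recovered as pulp) in both of the trials studied. They were chosen from the read counts themselves. Of 12224 E. grandis genes that had exactly 1 transcript in each trial, 3065 averaged at least 50 CPM (read counts scaled to a common library size, with edgeR's TMM factors within a trial) in both trials and are called abundant here. The 144 stable genes were the abundant genes whose coefficient of variation (CV, SD over mean) over the 6 libraries of a trial was below 10% and whose log2 ratio of the low over the high KPY mean was within 0.1 of 0, each in both trials. The other 2921 abundant genes were used to show what the choice left behind. The CV, the mean and the KPY ratio chose the genes, so these values are given as descriptions without a test.

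RNA came from cambial scrapings, labelled xylem, of E. nitens trees aged 20 years growing in the Florentine and Meunna trials. Each library was 1 bulk of RNA pooled from several trees of 1 KPY class, with 3 low KPY and 3 high KPY bulks in each trial and 12 libraries in all. By the paper's methods, a bulk held more trees in Florentine than in Meunna. The part of this in the spread between bulks was not tested. No tree was treated, and the classes are the extremes of a trait measured on standing trees. Pooling means that a bulk gives the average of its trees, so that the spread among trees was not measured, and in bulk tissue fewer cells of a type and less RNA per cell cannot be told apart.

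Genes that keep a steady level across conditions serve as the internal standard when the expression of other genes is measured. In plants they are usually sought among housekeeping genes, which encode the cytoskeleton, ribosomes, translation factors, the ubiquitin system and the enzymes of glycolysis. Cambium that makes wood also uses some of these same proteins for building the secondary wall, among them the tubulins that guide the cellulose synthases.

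The libraries held between 44538273 and 53775708 counts in low KPY and between 45345079 and 45986808 in high KPY bulks of Florentine, and between 49489614 and 70097142 in low KPY and between 75565811 and 89987549 in high KPY bulks of Meunna. TMM factors were 1.08 to 1.17 in low KPY and 0.882 to 0.917 in high KPY libraries of Florentine, and 1.10 to 1.13 in low KPY and 0.857 to 0.946 in high KPY libraries of Meunna. Xylem markers were expressed in every class as sums over genes. The weakest of the 5 secondary wall cellulose synthases averaged only 1.99 CPM in low KPY bulks of Florentine and 0.993 CPM in those of Meunna. The 2 named leaf chlorophyll a/b binding genes summed to at most 4.38 CPM in any class. The 1 named phloem gene reached at most 2.35 CPM, and no rubisco small subunit was named. The 5 cellulose synthases summed to 2603 CPM in low KPY and 7084 CPM in high KPY bulks of Florentine. In Meunna they summed to 1105 CPM in low KPY and 4350.0 CPM in high KPY bulks. The classes therefore differed in the summed level of wood genes in both trials, and the part of this in the stability of a gene was not tested.

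The stable genes covered a wide range of levels but took a small share of the counts. Their mean ranged between 50.5 and 1401 CPM in Florentine (median 99.6) and between 50.8 and 1728 CPM in Meunna (median 104), and averaged over both trials 72 genes lay below 100 CPM, 51 between 100 and 200 CPM and 21 above. Together they held 1.89% of all counts in Florentine and 2.08% in Meunna, against 49.1% and 46.0% for the other abundant genes. Levels were not corrected for transcript length, so where genes are ranked or compared by CPM, this holds for read counts only. Depth did not limit the values: the smallest count of a stable gene in a library was 1890 in Florentine and 2679 in Meunna, and at the median mean count the counting error alone would give a CV of 1.44% and 1.16% in these trials.

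The CV of the stable genes was 1.59% to 8.80% in Florentine (median 4.58%) and 1.67% to 9.98% in Meunna (median 5.79%). The medians of the other abundant genes were 18.1% in Florentine and 19.6% in Meunna. The highest library of a stable gene exceeded the lowest by a median of 1.13-fold (at most 1.30-fold) in Florentine and by 1.17-fold (at most 1.34-fold) in Meunna. Taking the larger CV of the trials, 26 genes were below 5%, 86 lay between 5% and 8%, and 32 were at 8% or more. The CV was larger in Meunna for 101 of the 144 genes (70.1%), close to the 68.2% found among the other abundant genes. Most of the other abundant genes missed the limit on the CV, 76.4% of them in Florentine and 83.6% in Meunna; 447 met it in Florentine but missed that on the KPY ratio, and 293 did so in Meunna.

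**Figure D1:**
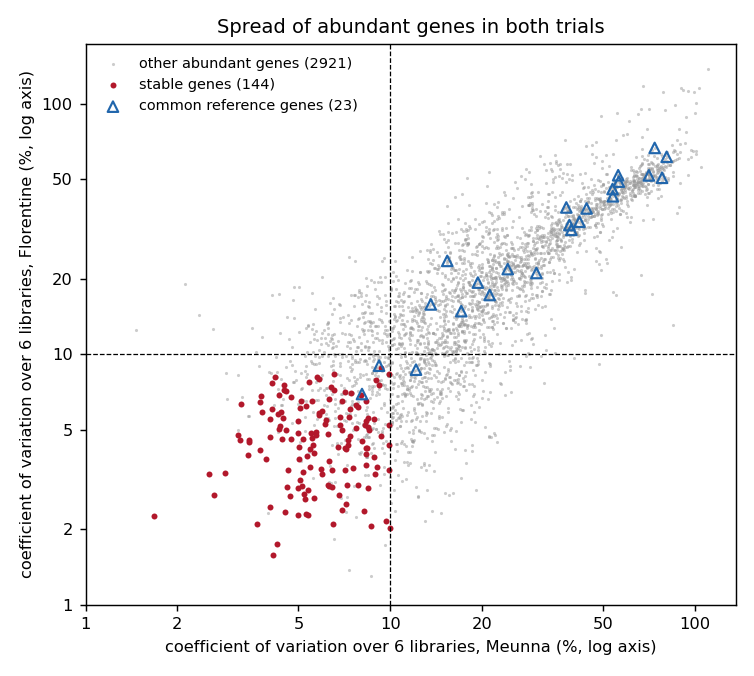
Coefficient of variation over the 6 libraries in Florentine (vertical, %, log axis) against that in Meunna (horizontal, %, log axis) for 3065 abundant genes; each point is a gene, dashed lines mark the limit of 10%, red points are the 144 stable genes and blue triangles the 23 named genes of common reference kinds. The triangles are genes named in the annotation of genes tested for allelic expression. Of the triangles, 2 lie below 10% in both trials, and neither is a stable gene because each missed the limit on the KPY ratio.

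The stable genes moved little with any single library. The median of their log2 ratios to the gene mean lay between -0.01 and 0.01 in the Florentine libraries and between -0.05 (high KPY bulk 1) and 0.03 (high KPY bulk 2) in the Meunna libraries. In Meunna the stable genes leaned together by library, with 111 of 144 above their mean in high KPY bulk 2 and 35 in high KPY bulk 1. In Florentine the number above the mean was between 52 and 80 in every library.

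**Figure D2:**
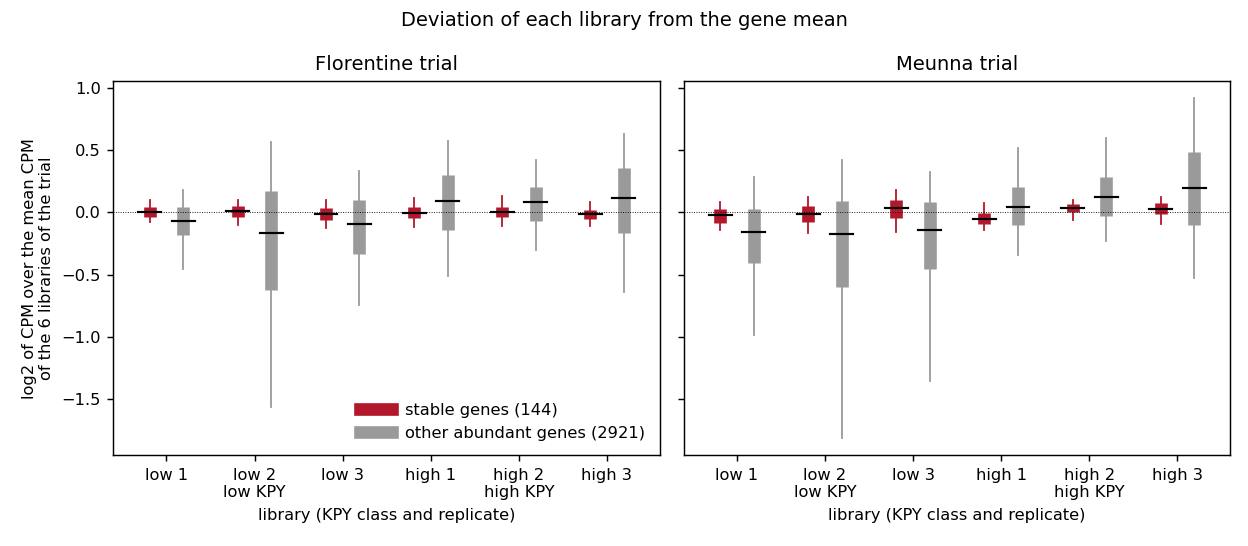
Log2 ratio of the CPM in each library to the mean CPM of the gene in its trial, for the 144 stable genes (red) and the 2921 other abundant genes (grey); boxes span the quartiles, thin lines the central 90%, and black bars are medians. The stable genes stay near 0 in all 12 libraries, whereas the medians of the other abundant genes lie below 0 in each low KPY library and above 0 in each high KPY library.

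The steadiest of the named genes was Eucgr.I01516, annotated as a ubiquitin family protein (ubiquitin and its relatives tag proteins, among other fates for degradation). In Florentine it had 138, 137 and 139 CPM in the low KPY libraries and 144, 139.5 and 144 CPM in the high KPY libraries. In Meunna it had 148, 154 and 150.1 CPM in the low KPY libraries and 148, 154 and 150.1 CPM in the high KPY libraries, the same values after rounding. The CV was 2.27% in Florentine, where every low KPY bulk lay below every high KPY bulk, and 1.67% in Meunna, where the classes overlapped. Eucgr.I02460, the large subunit of the U2 snRNP auxiliary factor, which helps the spliceosome recognise the end of an intron, was steadier still in Florentine, with 342, 346 and 349 CPM in the low KPY libraries and 336, 348 and 337 CPM in the high KPY libraries. In Meunna it had 353, 361 and 375 CPM in the low KPY libraries and 333, 342 and 354 CPM in the high KPY libraries. Its CV was 1.59% in Florentine and 4.12% in Meunna, and the high KPY bulk 3 of Meunna lay within the range of the low KPY bulks.

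A protein kinase, Eucgr.I00713, belonged to the 10 steadiest genes as well. Kinases of this superfamily add phosphate to other proteins, and the annotation does not say which. It had 94.0, 89.1 and 96.5 CPM in the low KPY libraries and 95.7, 98.4 and 93.9 CPM in the high KPY libraries of Florentine, and 94.7, 91.0 and 93.0 CPM in the low KPY libraries and 92.3, 98.8 and 93.8 CPM in the high KPY libraries of Meunna, so that the classes overlapped in both trials. The other steadiest genes had no name in the tables used here. They were Eucgr.B01550, Eucgr.E00406, Eucgr.F02336, Eucgr.F04478, Eucgr.H03150, Eucgr.I02778 and Eucgr.J01358, and their larger CV lay between 2.73% for Eucgr.F04478 in Florentine and 4.15% for Eucgr.E00406 in Florentine. Eucgr.J01358 had 157, 156 and 154 CPM in the low KPY libraries and 154, 166 and 151 CPM in the high KPY libraries of Florentine, and 157, 165 and 159 CPM in the low KPY libraries and 153, 159 and 159 CPM in the high KPY libraries of Meunna. No class stood apart in either trial.

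The highest counts among the stable genes belonged to Eucgr.I01779, annotated as ADP-ribosylation factor A1B, a small GTPase of a family that recruits vesicle coats at the Golgi. In Florentine it had 1339, 1449.7 and 1438 CPM in the low KPY libraries and 1378, 1409 and 1391 CPM in the high KPY libraries. In Meunna it had 1855, 1855 and 1459 CPM in the low KPY libraries and 1696, 1764 and 1737 CPM in the high KPY libraries. The values of Florentine lay close together (CV 2.92%), while in Meunna the low KPY bulk 3 was the lowest library and the other low KPY bulks were the highest (CV 8.47%). Next came Eucgr.F01565, an unknown protein, with a mean of 498 CPM in Florentine and 856 CPM in Meunna, and its classes overlapped in both trials. By the mean over both trials there followed Eucgr.G03042 (without a name), the ribosomal protein Eucgr.H00286, Eucgr.H00132 (without a name), the splicing factor Eucgr.I02460, Eucgr.B03485 (without a name) and the ribosomal protein Eucgr.A02519, with means between 285 CPM (Eucgr.A02519 in Florentine) and 433 CPM (Eucgr.G03042 in Meunna).

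**Figure D3:**
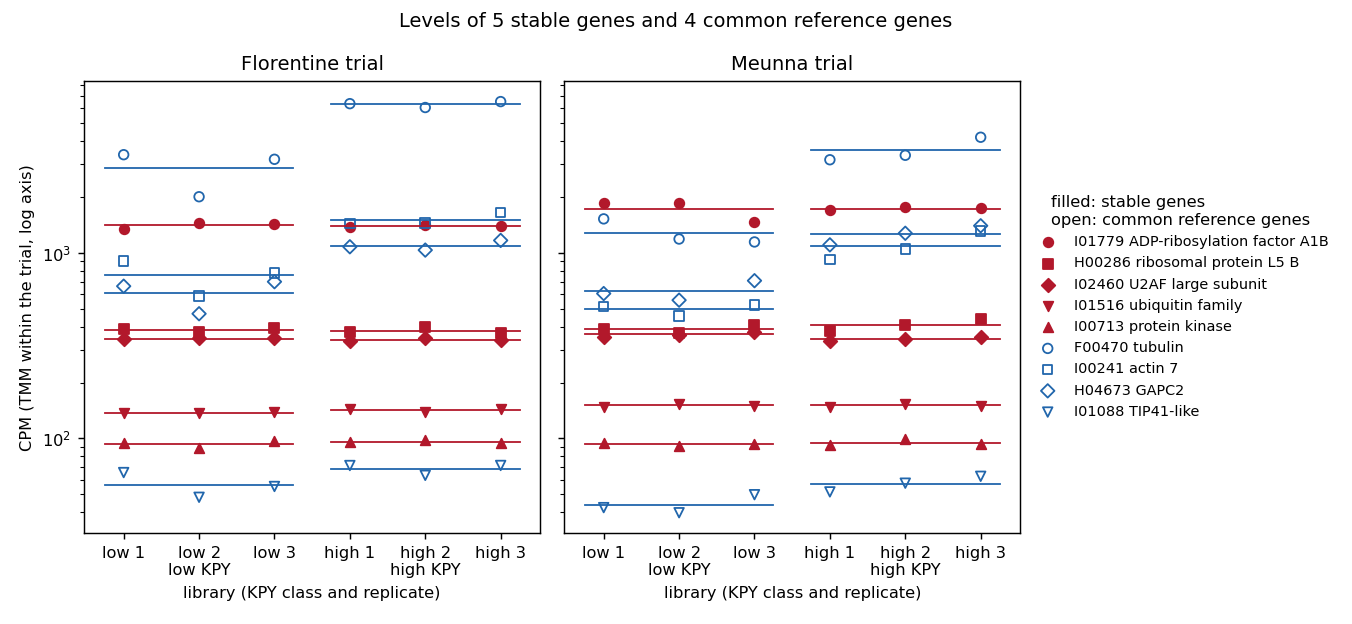
CPM (log axis, TMM within a trial) of 5 stable genes (filled, red) and 4 genes of common reference kinds (open, blue) in each library; bars are class means of 3 libraries. The stable genes run flat across the classes, whereas tubulin, actin 7, GAPC2 and TIP41-like have lower means in low KPY than in high KPY bulks of both trials.

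Some function could be read for 20 of the 144 genes. Names came from annotations that the study gives for genes tested for allelic expression. The part used here covers 651 of the 3065 abundant genes and gave a name to 23 stable genes, 3 of them of unknown function; the other 121 stable genes had none. Stable genes made up 3.53% of the abundant genes annotated there and 4.70% of all abundant genes. In read counts the named stable genes were the higher, with a median of 181 CPM in Florentine and 192 CPM in Meunna. The medians of those without a name were 92.1 CPM and 99.0 CPM. The counts by function below therefore describe members with more reads, without correction for transcript length. They leave out 390 abundant genes that were named only in the study's lists of differentially expressed genes.

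Ribosomal proteins, the structural proteins of the ribosome, were the kind with the most stable genes by number, 6 of the 52 abundant genes matched by this name (11.5%), against 17 of the other 599 annotated abundant genes (2.84%). The match includes 3 genes that are not structural ribosomal proteins or may not be, none of them stable: Eucgr.F01462 and Eucgr.H03140, whose annotations also name an elongation factor, and Eucgr.G01416, which has an S5 domain 2-like annotation. Without these, 6 of 49 were stable (12.2%). Eucgr.H00286, ribosomal protein L5 B of the large subunit, had 389, 375 and 393 CPM in the low KPY libraries and 374, 396 and 368 CPM in the high KPY libraries of Florentine, and 388, 368 and 408 CPM in the low KPY libraries and 381, 406 and 439 CPM in the high KPY libraries of Meunna. Its classes overlapped in both trials. Eucgr.A02519, ribosomal protein 5B, had a CV of 7.37% in Florentine and 6.41% in Meunna. Eucgr.B03850 of the L1p/L10e family was less steady in Meunna, where it had 275, 249 and 327 CPM in the low KPY libraries and 257, 272 and 283 CPM in the high KPY libraries. There the low KPY bulk 3 was the highest library and gave a CV of 9.90%, while in Florentine the CV was 4.36%. Eucgr.B01908 (ribosomal protein L18), Eucgr.F02696 (ribosomal protein 1) and Eucgr.K02508 (S19e family, of the small subunit) completed the group, with CVs of 6.03%, 3.45% and 4.23% in Florentine and 7.37%, 9.94% and 8.42% in Meunna. Over all 52 genes the median CV was 8.93% in Florentine and 10.2% in Meunna, and the median log2 ratio of low over high KPY was 0.12 and 0.04. In Florentine 38 of the 52 were higher and 14 lower in low KPY, and by edgeR's quasi-likelihood test 5 passed a false discovery rate (FDR) of 0.05 upwards (19.5% of all transcripts did) and 3 downwards (20%). In Meunna 29 were higher and 23 lower, and by edgeR's quasi-likelihood test 0 passed in either direction, where 28% of transcripts did (5 of the 52 had an unadjusted p under 0.05, edgeR's exact test called 0 and DESeq2 called 3). The direction depends on the scaling. With library size only, 50 of the 52 were higher in low KPY in Florentine, with 37 called higher and 0 called lower. In Meunna 48 were higher, with 15 called higher and 0 lower. The median log2 ratios were 0.43 in Florentine and 0.34 in Meunna, against 0.33 and 0.26 over all genes with 1 transcript. The typical gene was thus also higher in low KPY under this scaling. The share of all transcripts called under it is not given, so these calls have no background. Ribosomal proteins belong to families with similar copies, whose reads the counting could split.

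Of the annotated abundant genes of the ubiquitin pathway, 4 of 29 were stable, a larger share (13.8%) than that of the ribosomal proteins. The order depends on the names used. With names from the study's lists of differentially expressed genes added, the pathway had 4 stable genes of 52, against 6 of 52 ribosomal proteins. Beside Eucgr.I01516 they were Eucgr.C03158, an F-box protein (F-box proteins choose the targets of a class of ubiquitin ligases), Eucgr.F02605, a protein with a RING/U-box zinc finger, a domain of ubiquitin ligases, and Eucgr.F03755, related to the ubiquitin-like modifier Ufm1. Eucgr.C03158 had 181, 188 and 175 CPM in the low KPY libraries and 186, 180.5 and 178 CPM in the high KPY libraries of Florentine, with a CV of 2.68%. In Meunna it had 165, 178 and 154 CPM in the low KPY libraries and 158, 173 and 161 CPM in the high KPY libraries, with a CV of 5.61%. The low KPY bulk 2 was the highest library in both trials and the classes overlapped. Eucgr.F02605 varied more, with a CV of 7.93% in Florentine and 8.97% in Meunna.

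Of the translation factors 1 of 15 was stable, Eucgr.H02962, an eIF4E, the factor that binds the cap of mRNA. It had 110.2, 109.7 and 110.0 CPM in the low KPY libraries and 116, 116 and 112 CPM in the high KPY libraries of Florentine, and 165, 186 and 176 CPM in the low KPY libraries and 187, 183 and 186 CPM in the high KPY libraries of Meunna. Its low KPY bulks lay below all high KPY bulks in Florentine and overlapped them in Meunna. Protein kinases and phosphatases gave 3 of 39 genes, namely Eucgr.I00713, Eucgr.F00222 and Eucgr.I01180, the last a SNF1-related protein kinase 2.2 (in Arabidopsis a kinase of abscisic acid signalling). Eucgr.I01180 had a CV of 4.27% in Florentine and 6.73% in Meunna, and Eucgr.F00222 of 7.18% and 6.54%. Splicing and RNA binding gave 1 of 12 genes (Eucgr.I02460), vesicle traffic 1 of 27 (Eucgr.I01779), and transcription and chromatin 1 of 24, which was Eucgr.F02605 again, matched by the words zinc finger. The remaining named members were a remorin (Eucgr.K00253, of a plant family of plasma membrane proteins), a WD40 repeat protein (Eucgr.E04234), a P-loop nucleoside triphosphate hydrolase (Eucgr.H00684) and a putative stress-inducible protein (Eucgr.D02024).

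No stable gene was found among the abundant members of the proteasome (7 genes), proton pumps (5), mitochondrial respiration (12), chaperones (13), transporters (10), central carbon metabolism (15) or cell wall (18). The median log2 ratio of low over high KPY of the 18 cell wall genes was -1.28 in Florentine and -1.94 in Meunna. It was -0.34 and -0.43 over the 651 annotated abundant genes, and -0.17 and -0.23 over all abundant genes. At the share found over the whole annotation (3.53%), each of these lists would hold fewer than 1 stable gene.

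None of the 23 annotated abundant genes of kinds commonly used as reference genes in plants was stable. At the share of 3.53% these 23 would also hold fewer than 1. They were actins, tubulins, elongation factors, ubiquitin-conjugating enzymes, cyclophilins, histones, clathrin adaptors, an isocitrate dehydrogenase, a TIP41-like protein and glyceraldehyde-3-phosphate dehydrogenase C2; no abundant gene was matched to polyubiquitin, PP2A subunit A, SAND, eIF4A or eIF5A. Names from the study's lists of differentially expressed genes raise the actins from 2 to 5 and the tubulins from 8 to 11, with 0 stable. The median CV of the 23 was 32.8% in Florentine and 38.8% in Meunna, and their median log2 ratio of low over high KPY was -0.84 and -1.02. By edgeR's quasi-likelihood test over all transcripts of a trial, 18 of the 23 passed an FDR of 0.05 in Florentine and 16 in Meunna. All of these were lower in low KPY, where 20% of Florentine and 16.9% of Meunna transcripts passed as lower. Among the 651 annotated abundant genes, 416 passed in Florentine and 342 in Meunna in either direction. The median log2 ratios of these 651 were -0.34 and -0.43. Tubulins made up 8 of the 23, and all 8 passed in both trials. With library size only, 13 of the 23 were called lower and 1 higher in Florentine, and 14 lower and 1 higher in Meunna. The shares of 20% and 16.9% are those under TMM, and the shares under library size only are not given. Under that scaling the median log2 ratio of the 23 was -0.53 in Florentine and -0.71 in Meunna, against 0.33 and 0.26 over all genes with 1 transcript. Eucgr.F00470, a tubulin of the microtubules, had 3379, 2005 and 3192 CPM in the low KPY libraries and 6365, 6068 and 6531 CPM in the high KPY libraries of Florentine, and 1524, 1187 and 1144 CPM in the low KPY libraries and 3173, 3355 and 4196 CPM in the high KPY libraries of Meunna. Every low KPY bulk lay below every high KPY bulk in both trials, with log2 ratios of -1.14 (adjusted p = 0.0192) and -1.48 (adjusted p = 0.00366). Eucgr.I00241, actin 7, the main subunit of the microfilaments, had 901, 584 and 781 CPM in the low KPY libraries and 1435, 1450.4 and 1648 CPM in the high KPY libraries of Florentine, and 512, 458 and 522 CPM in the low KPY libraries and 920.5, 1047 and 1313 CPM in the high KPY libraries of Meunna. It too was separated between the classes in both trials, with log2 ratios of -1.0 (adjusted p = 0.0159) and -1.14 (adjusted p = 0.00483). For Eucgr.H04673, the glycolytic glyceraldehyde-3-phosphate dehydrogenase C2, the log2 ratios were -0.84 and -1.02 (adjusted p = 0.0181 and 0.00548). The adjusted p-values of the Florentine trial depend on single libraries: without high KPY bulk 1 or 3, no transcript of that trial passed the quasi-likelihood test (10009 and 9701 had an unadjusted p under 0.05, and edgeR's exact test called 6382 and 6292).

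Several genes of reference kinds came close to the limits. Eucgr.G02807, of the elongation factor Tu family, which delivers aminoacyl-tRNA to the ribosome, had a CV of 6.94% in Florentine and 8.08% in Meunna, but its log2 ratio was 0.05 in Florentine and -0.19 in Meunna. In Meunna it had 1162, 1107 and 1220.2 CPM in the low KPY libraries and 1273, 1322 and 1376 CPM in the high KPY libraries, so that every low KPY bulk lay below every high KPY bulk. Eucgr.J02593, ubiquitin-conjugating enzyme 34, had a CV of 9.00% and 9.19% with log2 ratios of -0.22 and -0.20 in Florentine and Meunna, and neither passed the test (adjusted p = 0.0694 and 0.18). Eucgr.G01759, a cyclophilin-like protein folding enzyme, was missed by the CV in Meunna alone: its log2 ratios were -0.04 and -0.02, its CV 8.68% in Florentine and 12.2% in Meunna, where it had 1261, 1181 and 872 CPM in the low KPY libraries and 1057, 1131 and 1172 CPM in the high KPY libraries. The low KPY bulk 3 was the lowest library and the other low KPY bulks were the highest, the order also seen in Eucgr.I01779. Eucgr.I01088, of the TIP41-like family, missed the limits on the CV and on the KPY ratio in both trials. Its CV was 14.9% in Florentine and 17.1% in Meunna. Its log2 ratios were -0.29 and -0.38 and did not pass the quasi-likelihood test (adjusted p = 0.114 and 0.0701).

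The limits cut through a continuous range of values. Just inside the limit on the CV were Eucgr.C03422 (9.98% in Meunna) and Eucgr.F02696 (9.94% in Meunna), and just outside were Eucgr.J01181 (10.02% in Meunna) and Eucgr.I01600 (10.1% in Meunna), both glycoside hydrolases, enzymes that cleave bonds between sugars. Just inside the limit on the KPY ratio were Eucgr.G03132 (-0.0990 in Meunna) and Eucgr.J01641 (-0.0983 in Florentine), and just outside Eucgr.B00394 (0.1001 in Florentine) and Eucgr.F02979 (0.1002 in Florentine). By mean level, Eucgr.I00009 (50.5 CPM in Florentine) and Eucgr.K01824 (50.8 CPM in Meunna) were just inside and Eucgr.D02156 (49.9 CPM in Florentine) and Eucgr.K02879 (49.9 CPM in Florentine) just outside.

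Between the KPY classes the stable genes had median log2 ratios of 0.0072 in Florentine and -0.0073 in Meunna. In Florentine 80 were higher and 64 lower in low KPY, and in Meunna 62 were higher and 82 lower; 84 genes had the same sign in both trials. Low and high KPY bulks did not overlap for 6 of 144 genes in Florentine (58.3% of all transcripts) and 4 of 144 in Meunna (49.1%), and for none in both. In Meunna these were Eucgr.A01267, higher in low KPY, and Eucgr.B00248, Eucgr.C02438 and Eucgr.G03132, lower; in Florentine they were Eucgr.A02453, Eucgr.B03413 and Eucgr.H00684, higher, and Eucgr.H02962, Eucgr.I01516 and Eucgr.K01267, lower, some of them named only after these values were seen. Because the KPY ratio was limited to choose the genes, nothing is read from these counts.

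What the choice did not fix is how genes chosen in some libraries behaved in others. When the limits were applied to Meunna alone, 330 abundant genes passed, and in Florentine, which entered that choice only through its minimum of 50 CPM, 144 of them (43.6%) met all limits, against 243 of the 2735 genes not chosen (8.88%). The median CV in Florentine was 6.93% for the genes chosen in Meunna and 19.3% for the rest, and the median absolute log2 ratio of low over high KPY was 0.11 and 0.45. In the other direction, 387 genes passed in Florentine, of which 144 (37.2%) met the limits in Meunna, against 186 of 2678 genes not chosen (6.95%). With no minimum in the other trial, 384 genes passed in Meunna and 400 in Florentine, of which the 144 were 37.5% and 36%. For the genes chosen in Florentine among the abundant genes, the median CV in Meunna was 8.67% against 21.2%, and the median absolute log2 ratio 0.10 against 0.45. Most genes that were stable in 1 trial therefore missed a limit in the other trial, while their spread there stayed below that of the other abundant genes.

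The same was seen in bulks left out of the choice. With the bulks of 1 replicate number left out of every class, the limits chose 123, 129 and 157 genes. In the left-out bulks these genes deviated from the mean of the other bulks of the trial by medians of 0.054 to 0.061 on the log2 scale in Florentine and 0.082 to 0.109 in Meunna, against 0.144 to 0.230 and 0.192 to 0.290 for the other abundant genes. The mean of these 6 medians was 0.0746 for the chosen genes and 0.218 for the others, and the deviations of the chosen genes were larger in Meunna for each number left out. Between the left-out low and high KPY bulks the median absolute log2 ratio of the chosen genes was 0.068 to 0.093 in Florentine and 0.083 to 0.121 in Meunna, against 0.315 to 0.488 and 0.340 to 0.484 for the other abundant genes. Measured against bulks of its own class only, the left-out bulk deviated by a median of 0.058 to 0.063 in Florentine and 0.070 to 0.105 in Meunna for the chosen genes, against 0.092 to 0.159 and 0.123 to 0.183, so the chosen genes were also steadier within a class. Both comparisons are over genes of the same bulks and carry no test.

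Which genes counted as stable depended on how the libraries were scaled. TMM sets the typical transcript to equal levels in all libraries, and in both trials it raised the effective size of the low KPY and lowered that of the high KPY libraries. With library size alone, the median transcript was higher in low KPY by 0.31 in Florentine and 0.30 in Meunna (log2) than under TMM. The 144 genes followed this shift: all 144 were then higher in low KPY in both trials, with log2 ratios of 0.21 to 0.41 in Florentine (median 0.32) and 0.20 to 0.40 in Meunna (median 0.29), and the same rule gave 126 stable genes, 0 of them among the 144. RLE, another scaling by the typical transcript, gave 151 stable genes, of which 120 were among the 144. Upper-quartile scaling gave 163, with 51 of the 144, and the median log2 ratio of the 144 was then 0.05 in Florentine and 0.12 in Meunna. Under TMM, RLE and upper-quartile scaling alike, 44 genes met all limits. In absolute terms the data cannot say whether these genes or the total of all counts stayed level between the classes, because the counts give shares of a library.

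**Figure D4:**
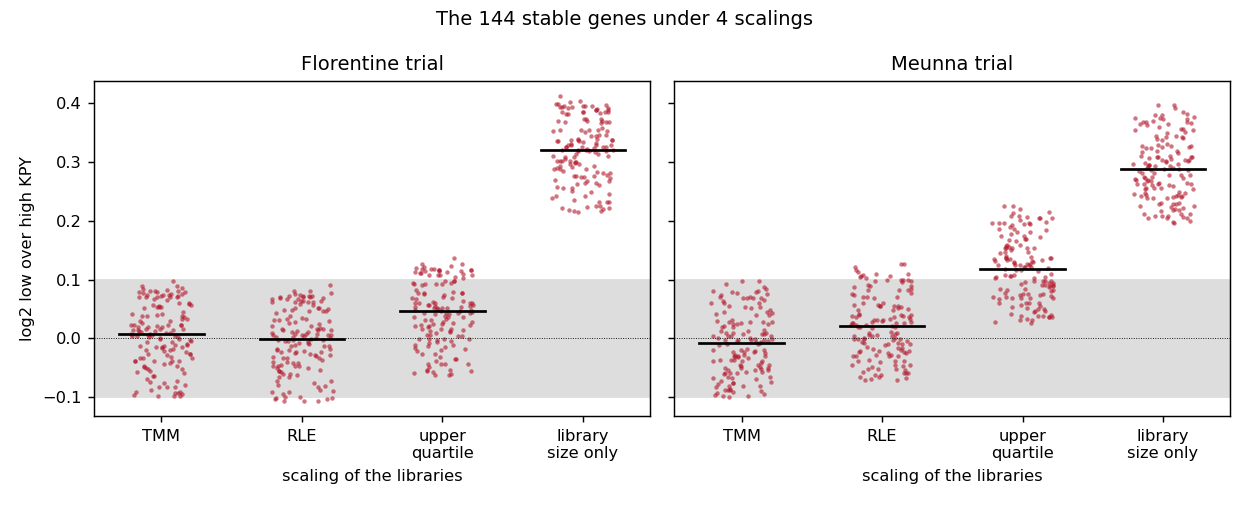
Log2 ratio of low over high KPY of the 144 stable genes in each trial under 4 scalings of the libraries; each point is a gene, black bars are medians, and the grey band marks the limit of 0.1 used with TMM. With library size only, all points lie above the band in both trials, between 0.20 and 0.41.

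The ribosomal proteins and reference genes depended on the scaling as well. Of the 52 ribosomal protein genes, 6 were stable under TMM, 4 under RLE, 6 under upper-quartile scaling and 2 under library size only. The reference kinds gave 0 stable genes under TMM and RLE, 1 under upper-quartile scaling (Eucgr.G02807) and 2 under library size only (Eucgr.I01088 and Eucgr.J02593). Stability also depended on the libraries: when each of the 12 libraries was left out in turn, 39 of the 144 genes met the limits every time and 36 fewer than 10 times.

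The difference between the trials was not limited by the choice, except that a gene needed 50 CPM in both. Florentine was set against Meunna in a joint fit of 12 libraries and the 12224 genes with 1 transcript in each trial, averaging over the KPY classes, with CPM scaled by TMM over these genes. Site, sampling date, sequencing run, the number of trees per bulk and the transcript models predicted separately in each trial cannot be told apart in this comparison. In this scaling the stable genes had median log2 ratios of low over high KPY of 0.07 in Florentine and 0.11 in Meunna. The log2 difference of Florentine over Meunna had a median of 0.08 over the 144 genes, with a range of -1.61 to 0.91, and 46 genes (31.9%) lay within 0.1 of 0, against 20.6% of the other abundant genes. By edgeR's quasi-likelihood test, 82 of 144 genes (56.9%) passed an FDR of 0.05, against 45.2% of all genes in the fit and 52.4% of the abundant ones, which is a share near the background. Of the 82, 57 were higher in Florentine (23.4% of all genes and 38.3% of the abundant ones were). The other 25 were lower (21.8% of all genes and 14.1% of the abundant ones were). The 6 libraries of Florentine did not overlap those of Meunna for 47 of 144 genes (32.6%), against 11.1% of all genes and 10.5% of the abundant ones. The small spread within a trial that chose the genes enters both counts. With 1 replicate number left out of every class fewer genes passed: 30 of 144 did so without number 1, 51 without number 2 and 56 without number 3.

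Among the 82 genes called under TMM, the call depended on the scaling more than the direction did. Of the 82 genes, 75 kept the sign of their difference under TMM, RLE, library size only and TMM over abundant genes, among them all 25 that were lower in Florentine and 50 of the 57 that were higher. With library size only, 14 of the 144 genes were called higher and 54 lower in Florentine, the median log2 difference being -0.09 against -0.16 over all genes; with TMM over the 3065 abundant genes alone, 23 were higher and 48 lower, with a median of -0.04. In all of these 4 scalings, 14 genes were called higher and 24 lower in Florentine. Of all 144 genes, 99 had the same sign of the difference in all 4. The SD of the difference over the 144 genes was 0.31 under each of these scalings.

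The 4 genes with the largest positive difference all kept their call under these scalings. Eucgr.F04478, which belonged to the 10 steadiest within a trial, had 172, 183 and 182 CPM in low KPY and 182, 169 and 170.2 CPM in high KPY libraries of Florentine, against 101, 96.7 and 95.7 CPM in low KPY and 90.2, 91.7 and 88.4 CPM in high KPY libraries of Meunna. The trials were far apart, and the level was 1.88-fold higher in Florentine (log2 0.91, SE 0.04, adjusted p = 2.20e-07). Eucgr.B03827 had 150.2, 176 and 171 CPM in low KPY and 152, 149 and 150.4 CPM in high KPY libraries of Florentine, against 92.2, 77.9 and 90.6 CPM in low KPY and 80.5, 85.4 and 80.9 CPM in high KPY libraries of Meunna, with no overlap (log2 0.90, SE 0.06, adjusted p = 1.84e-06). Eucgr.K00091 and Eucgr.C00824 were higher in Florentine by 0.54 (SE 0.05) and 0.48 (SE 0.05) on the log2 scale (adjusted p = 1.19e-05 and 4.43e-05). None of the 4 had a name in the tables used here.

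Larger differences were found in the other direction, and these too kept their call under each scaling. Eucgr.D01833, without a name, had 167, 164 and 145 CPM in low KPY and 159.6, 142 and 146 CPM in high KPY libraries of Florentine, against 491, 498 and 528 CPM in low KPY and 426, 446 and 432 CPM in high KPY libraries of Meunna. The libraries of the trials were clearly separated, and the level was 3.05-fold lower in Florentine (log2 -1.61, SE 0.06, adjusted p = 2.62e-08). Eucgr.B00248, also without a name, had 92.3, 95.5 and 78.2 CPM in low KPY and 89.1, 80.6 and 84.9 CPM in high KPY libraries of Florentine, against 245, 241 and 245 CPM in low KPY and 242, 243 and 223 CPM in high KPY libraries of Meunna, a log2 difference of -1.47 (SE 0.06, adjusted p = 5.82e-08). These were the 2 stable genes with a difference over 1. The WD40 repeat protein Eucgr.E04234 (WD40 repeats bind other proteins) was lower in Florentine by 1.56-fold (log2 -0.64, SE 0.05, adjusted p = 7.37e-06), and the abundant unknown protein Eucgr.F01565 by 1.55-fold (log2 -0.63, SE 0.07, adjusted p = 5.82e-05). The cap-binding factor Eucgr.H02962 had 174, 181 and 176 CPM in low KPY and 182, 176 and 175 CPM in high KPY libraries of Florentine, against 247, 276 and 259 CPM in low KPY and 266, 247 and 246 CPM in high KPY libraries of Meunna, without overlap (log2 -0.53, SE 0.05, adjusted p = 1.75e-05).

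**Figure D5:**
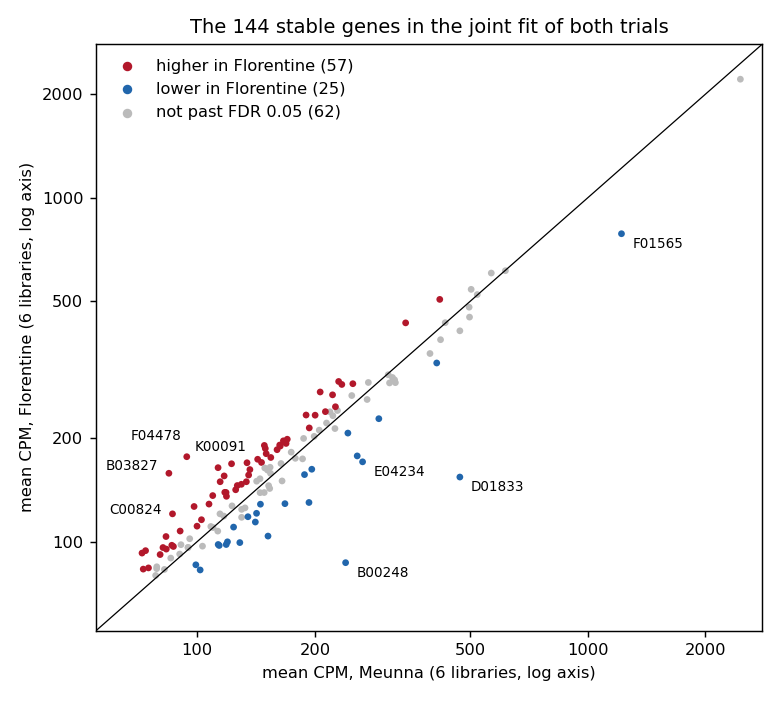
Mean CPM of the 144 stable genes over 6 libraries in Florentine (vertical, log axis) against that in Meunna (horizontal, log axis), scaled by TMM over 12224 genes; colours give the call of the quasi-likelihood test at an FDR of 0.05, and the line marks equal levels. Most genes lie near the line, and Eucgr.D01833 and Eucgr.B00248 lie farthest below it.

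Other members did not pass this test. For Eucgr.I01779 the log2 difference was -0.15 (SE 0.09, adjusted p = 0.17), for the splicing factor Eucgr.I02460 0.11 (SE 0.05, adjusted p = 0.0814), and for Eucgr.I01516 0.05 (SE 0.04, adjusted p = 0.404). Of the ribosomal proteins, Eucgr.B01908 was lower in Florentine (log2 -0.23, adjusted p = 0.0109), and the other 5 did not pass, with log2 differences between -0.16 (Eucgr.B03850) and 0.09 (Eucgr.H00286). Of the genes with a name 8 of 23 passed, and of those without a name 74 of 121. Of all abundant genes in this fit, 52.4% passed. The shares among abundant genes with and without a name are not given, so no effect of naming is read from these counts.

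Over all 12 libraries the CV of the stable genes had a median of 9.27% (3.79% to 53.7%), and 86 of 144 stayed below 10%, as did 301 of the 2921 other abundant genes. The smallest values belonged to Eucgr.H03886 (3.79%), Eucgr.I01516 (4.11%), Eucgr.I01561 (4.38%), Eucgr.K02078 (4.47%) and Eucgr.G02557 (4.48%), of which all but Eucgr.I01516 were singled out after their values were seen. Eucgr.H03886 had 212, 215 and 206 CPM in low KPY and 204, 206 and 223 CPM in high KPY libraries of Florentine, against 203, 206 and 219.6 CPM in low KPY and 201, 195 and 207 CPM in high KPY libraries of Meunna, and its trials and classes overlapped. Eucgr.I01516 had 218, 226 and 221 CPM in low KPY and 226, 212 and 224 CPM in high KPY libraries of Florentine, against 221, 228 and 220.1 CPM in low KPY and 211, 207 and 198 CPM in high KPY libraries of Meunna. In this scaling its Meunna high KPY bulks lay below the Meunna low KPY bulks, by a small margin, although they overlapped under TMM within the trial.

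The stable genes were spread over the whole genome. The letter in an identifier gives the chromosome-scale scaffold (it equalled the scaffold number in all 6864 rows where both were listed), and stable genes were found under every letter from A to L (the last for unplaced scaffolds), between 3.52% of the abundant genes (K, 10 of 284) and 8.70% (L, 4 of 46). Letter F held the most, 27 of 406 (6.65%). Identifiers within 10 steps of each other occurred in 6 pairs, of which Eucgr.F04478 and Eucgr.F04480 were 2 steps apart and Eucgr.B03847 and Eucgr.B03850 were 3 steps apart. No stable gene shared its row of counts with a further transcript of its trial.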

How the data were processed

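RNA of 12 bulks was sequenced, 3 of low and 3 of high KPY trees in each of 2 trials. Per the study's methods, the authors trimmed adapters and poor bases, aligned the 6 libraries of a trial together to the genome of E. grandis (TopHat, with Bowtie), built transcript models from these alignments alone (Cufflinks) and counted the reads of every bulk on the models (BEDtools). No genome version is named in what was used here. They deposited raw read counts, 1 table per trial of 23917 (Florentine) and 26279 (Meunna) transcripts with an E. grandis gene identifier where there is one. All transcripts reached 1 CPM in at least 3 libraries. Strand was not stated to be used, so antisense overlap and near-identical copies are uncertain.

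The analysis used edgeR 4.0.16 under R 4.3.3 (TMM, quasi-likelihood F test, Benjamini-Hochberg over all transcripts or genes of a fit) and, as alternatives, edgeR's exact test and DESeq2 1.42.0. The SE is the size of the log2 difference over the square root of F. The tests were first checked on simulated counts. KPY classes were fitted within a trial, and the trials in 1 fit of 4 groups. The bulks are pools of different trees, so p-values measure the spread between bulks. Same-numbered bulks were not taken as pairs, since the correlations of their deviations were not all above 0.1.

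The members and gene lists were chosen with earlier results of these data known. Genes named are the 10 steadiest and 8 most abundant stable genes, those just inside and outside each limit, the 4 with the largest trial difference in each direction, the most abundant of each reference kind, and up to 3 stable genes per functional list; the other annotated members and those marked in the text were added. Arabidopsis-based names come from parts of the study's supplementary tables. Columns of the authors' own comparisons in those tables were not used, but a gene had a name only if those tables listed it. Alternatives were other scalings, limits, tests and filters, the transcript with the highest mean of each gene, the replicate number as a block, and leaving out libraries. Variants and alleles were not analysed here.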

Additional observations from a re-analysis of the deposited data

How the results depend on the processing

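The number of stable genes, 144, was 251 with a mean of at least 20 CPM, 65 with 100 CPM, 42 with a log2 limit of 0.05 and 394 with 0.2; a CV limit of 0.08 gave 112, one of 0.15 gave 183, and the transcript with the highest mean of each gene gave 194. Leaving out 1 library gave 125 to 179. Transcripts past an FDR of 0.05 between the KPY classes numbered 9450 in Florentine (0 to 10281 when a library was left out: 0 without high KPY bulk 1 or 3 and 2725 without low KPY bulk 3) and 7354 in Meunna (4163 to 5969 when a library was left out: 4819, 4677 and 4163 without high KPY bulk 1, 2 and 3). DESeq2 gave 11528 in Florentine and 10026 in Meunna, and edgeR's exact test 9510 and 7953. Between the trials 5531 of all genes passed, 2534 to 4535 with 1 replicate number left out and 1549 when only the 3065 abundant genes were tested, which is fewer genes; of the stable genes 82 passed, 30 to 56 with 1 number left out (fewer libraries), 71 among abundant genes only, 68 with library size only and 87 with DESeq2. The deviation of left-out libraries, 0.0746, was 0.0894 when genes were chosen in 1 trial and measured in the other (0.272 for the other abundant genes). Common reference genes among the stable genes numbered 0, and 2 with library size only. Of 280 alternative values for the trial difference of 35 named stable genes, 234 kept their side of the threshold, 26 lost the call and 18 gained it. The 234 include values whose sign changed where neither fit passed, such as Eucgr.I01516 with library size only (-0.12 against 0.05). The other 2 changed direction where at least 1 of the fits passed. Both did so with library size only: Eucgr.I00713 (-0.0088) and Eucgr.J01358 (-0.0401), against 0.16 and 0.13.

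With the replicate number as a block, 9154 transcripts passed in Florentine, 6167 in Meunna, 5689 genes between the trials and 79 of the stable genes. Same-numbered low and high KPY bulks correlated at -0.077, 0.260 and -0.013 in Florentine and -0.082, 0.043 and 0.120 in Meunna. Same-numbered bulks of the trials correlated at 0.210, 0.380 and -0.013 in low KPY and 0.164, 0.265 and 0.466 in high KPY. Differently numbered bulks of the trials ranged from -0.338 to 0.198. Not all same-numbered values were above 0.1, so the numbers were not taken as pairs. Depth limited no value of a stable gene, whereas 3 bulks per class limit every test.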
